A study of Mus musculus with 2 samples.

Results

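Nr2f1 and Nr2f2 encode COUP-TFI and COUP-TFII, a pair of closely related orphan nuclear receptors, and they lay on opposite sides of the comparison between Pax6-/- and wild type embryonic cortex. Nr2f2 was 2.32-fold higher and Nr2f1 1.63-fold lower on the Pax6-/- array. The members are every probe set of the Affymetrix array whose single platform gene symbol is Nr2f1 or Nr2f2, which gave 2 of the 8251 genes and 3 of the 12488 probe sets. The pair was selected on its gene symbols and on the opposed log2 ratios of these same arrays, so those ratios are a description and carry no test.

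The Pax6-/- group is E14.5 cerebral cortex from embryos of the NMRI mouse strain, homozygous for a Pax6 mutation whose allele the labels do not name. The wild type group is the same tissue of NMRI embryos at the same stage. By the design text RNA came from 3 embryos of each genotype, but the series holds 1 array for each, and whether RNA was pooled is not given in the sources used here. No genotype has a second array, so the differences below cannot be set against a spread between replicates, and there are no p-values.

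COUP-TF proteins bind DNA as dimers, alone or with retinoid X receptors, at repeats of the AGGTCA motif, and often act as repressors. In mouse cortex Nr2f1 is graded from high caudally to low rostrally and promotes the identity of caudal, sensory areas, against the rostral gradient of Pax6. Nr2f2 is known for ventral and caudal territories, in particular the caudal ganglionic eminence and the interneurons that leave it, and outside neural tissue for venous endothelium and mesenchyme.

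The 250 bases before the outermost annotated start of each gene are shown because the pair, alike in protein, differs in its letters there. They are from RefSeq (GRCm38.p6), on the minus strand, and capitals mark CG dinucleotides. The arrays hold no measurement of these windows and do not show from which start either gene is read in this tissue.
Nr2f1, chr13:78198874-78199123: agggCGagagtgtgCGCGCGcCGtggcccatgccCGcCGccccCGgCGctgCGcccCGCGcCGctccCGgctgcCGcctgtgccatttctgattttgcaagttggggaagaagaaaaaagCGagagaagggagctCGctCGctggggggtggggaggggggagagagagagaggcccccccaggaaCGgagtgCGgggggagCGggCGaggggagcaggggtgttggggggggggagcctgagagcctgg
Nr2f2, chr7:70366747-70366996: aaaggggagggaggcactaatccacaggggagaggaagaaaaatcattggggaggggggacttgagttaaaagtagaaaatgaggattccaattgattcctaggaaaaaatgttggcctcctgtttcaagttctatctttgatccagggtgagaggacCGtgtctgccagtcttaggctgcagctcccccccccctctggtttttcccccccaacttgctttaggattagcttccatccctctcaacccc

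The Nr2f1 window held 22 CG dinucleotides and 72% G and C bases, and the Nr2f2 window 1 CG dinucleotide and 50%, against medians of 6 and 52.4% over 32851 mouse promoter windows of that length. Neither window held AGGTCA, which on either strand occurs in 14.02% of all windows, or the homeodomain motif TAATTA, which occurs in 4.84%. The Nr2f2 window held 1 E-box (CANNTG, found in 66.2% of windows) and the Nr2f1 window 0. A second annotated Nr2f1 start lies within the gene, and its window, with 2 CG dinucleotides, held 2 E-boxes.

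Nr2f1, on chromosome 13 (78188971 to 78198873, GRCm38.p6), was read by 1 probe set. Its MAS5 signal, an intensity in arbitrary units, was 573 on the Pax6-/- array and 950 on the wild type array. These lie at the 70.4th percentile of all probe sets on the Pax6-/- array and the 83.0th on the wild type array. The log2 ratio of Pax6-/- over wild type was −0.70, computed after adding a pseudocount of 81.5 to each signal and centring on the median of all probe sets above a signal filter of 166.

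Nr2f2, on chromosome 7 (70351946 to 70366746), was read by 2 probe sets, both with a suffix that marks a compromise in probe choice. The brighter one, an _r_at probe set, for which Affymetrix relaxed its selection rules, had a signal of 486 on the Pax6-/- array and 156 on the wild type array. That is the 65.9th percentile on the Pax6-/- array and the 40.4th on the wild type array, and the log2 ratio was 1.21. The wild type signal was below the filter level, so this probe set passed the filter only through its Pax6-/- signal.

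The second Nr2f2 probe set, an _f_at probe set, whose probes can be shared within a sequence family, had a signal of 77.5 on the Pax6-/- array and 2.84 on the wild type array. Both values are below the pseudocount, and the wild type value is at the 0.208th percentile of its array. It was higher on the Pax6-/- array as well, with a log2 ratio of 0.87, but it did not pass the filter. In RNA from whole tissue, fewer cells of a type and less RNA per cell cannot be told apart.

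**Figure D1:**
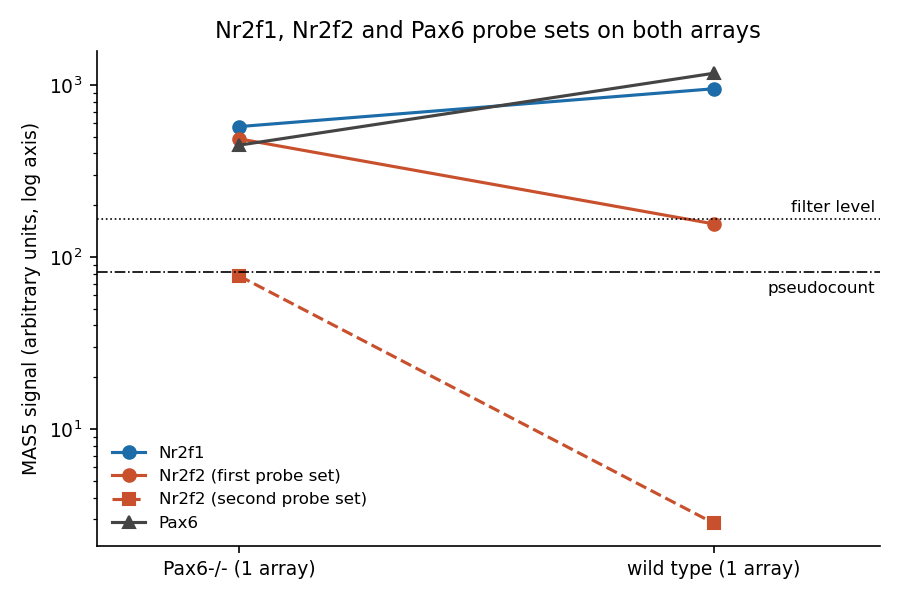
MAS5 signals (log axis) of the Nr2f1 probe set, both Nr2f2 probe sets and Pax6 on the Pax6-/- array (left) and the wild type array (right), 1 array per genotype; horizontal lines mark the filter level of 166 and the pseudocount of 81.5. Nr2f1 and Pax6 slope down towards the Pax6-/- array, and both Nr2f2 probe sets slope up towards it; heights of different probe sets are not comparable.

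Pax6 itself, the disrupted gene, was read by 1 probe set with a signal of 447 on the Pax6-/- array and 1169 on the wild type array, a log2 ratio of −1.29. Nr2f1 thus lay on the same side as Pax6 and Nr2f2 on the other. The labels do not say which part of Pax6 is altered, so this probe set may be no check of the genotype.

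Across 5586 genes above the filter, 289 (5.17%) were higher by 2-fold or more on the Pax6-/- array and 314 (5.62%) were lower by as much, together 10.8%. After loess scaling the split was 209 higher and 377 lower, and after quantile scaling 223 and 365. Nr2f2 was one of these 289, as the 173rd highest ratio, and 3.10% of the genes were as high or higher. Nr2f1 did not reach 2-fold: its ratio was the 614th lowest, and 10.99% of the genes were as low or lower. Within their own signal classes, 6.32% of 2343 dim genes were as high as Nr2f2, and 9.19% of 1295 genes of middle signal were as low as Nr2f1.

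A technical spread was computed over the 894 genes that had more than 1 probe set above the filter, as the SD of the difference between their 2 brightest log2 ratios divided by the square root of 2. It was 0.72 for signals below 471, the class of Nr2f2, and 0.54 for signals between 471 and 828, the class of Nr2f1. The Nr2f2 ratio amounted to 1.68 of these spreads and the Nr2f1 ratio to 1.31. The difference between both ratios, Nr2f2 minus Nr2f1, was 1.91 on the log2 scale, or 2.13 times the combined spread of 0.90. The spread contains nothing of the variation between embryos.

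**Figure D2:**
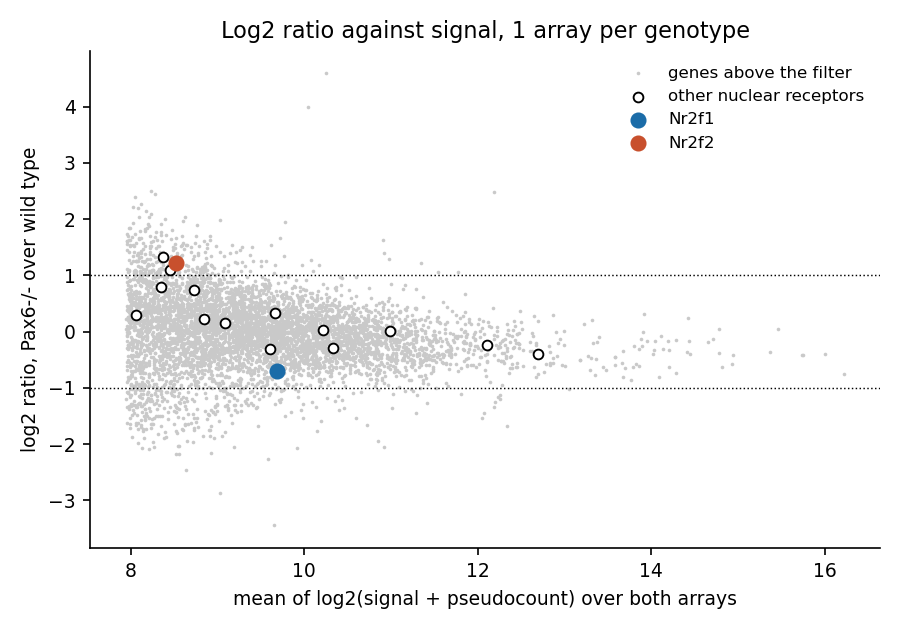
Log2 ratio of Pax6-/- over wild type against the mean of log2(signal + pseudocount) over both arrays for 5586 genes above the filter; dotted lines mark 2-fold. Nr2f2 (orange, 1.21) sits above the upper line among dim genes, where ratios scatter widely, and Nr2f1 (blue, −0.70) lies inside the lower line at middle signal.

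The kind of probe set moved with the ratio. The 370 _r_at probe sets above the filter had a median log2 ratio of 0.24, and 69.7% of them were higher on the Pax6-/- array. The 5394 probe sets without a suffix had a median of −0.02, with 48.1% higher. At least 2-fold higher were 8.65% of the _r_at probe sets, against 5.15% of those without a suffix. Centred on the _r_at median, an adjustment chosen after seeing the data, Nr2f2 was at 0.97, just under 2-fold.

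For 147 genes an _r_at probe set could be set beside one of the same gene without a suffix. The signs matched in 70 of them (47.6%). Of the 16 genes whose _r_at probe set was at least 2-fold higher, the other probe set was higher in 7 and at least 2-fold higher in 0. Among 348 genes with a pair of probe sets that have no suffix, the signs matched in 205 (58.9%). Of 25 such probe sets at least 2-fold higher, the partner was higher in 14 and at least 2-fold higher in 4. These 25 are probe sets, so a gene with both that high enters once for each, whereas the 16 are genes. Nr2f2 has no probe set without a suffix, so its ratio could not be set beside one, and the part of the probe set type in its ratio was not tested. The Nr2f1 probe set has no suffix.

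**Figure D3:**
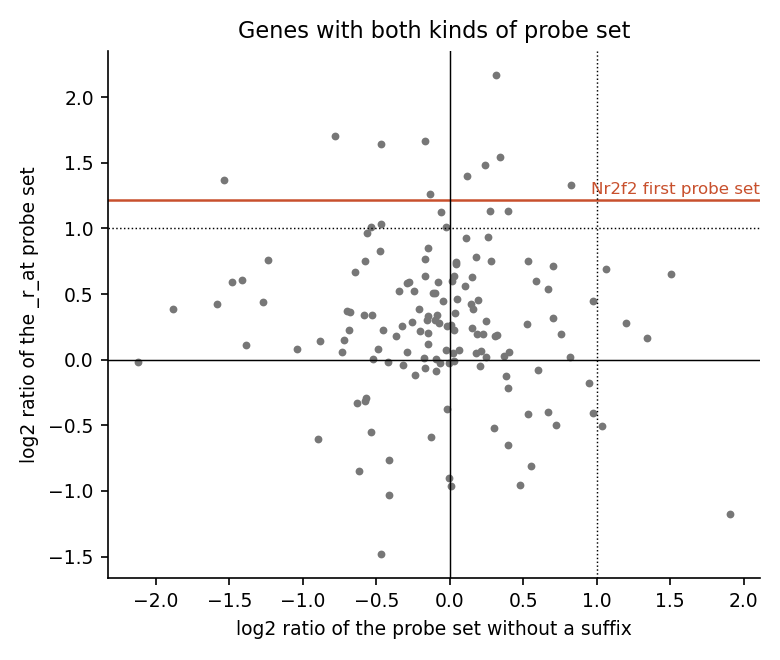
Log2 ratio of the _r_at probe set (vertical) against that of the probe set without a suffix (horizontal) for the 147 genes that have both above the filter; dotted lines mark 2-fold higher and the orange line the Nr2f2 value of 1.21. Points above 2-fold on the vertical axis lie left of the 2-fold line on the horizontal axis in all 16 cases.

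The closest relatives of the pair had log2 ratios between −0.34 and 0.37 by their brighter probe sets. Nr2f6 (EAR2), the third COUP-TF family gene, had a signal of 629 on the Pax6-/- array and 775 on the wild type array, a log2 ratio of −0.31, on the side of Nr2f1. Nr2c1 (TR2), an orphan receptor of the same subfamily, had 424 in Pax6-/- and 337 in wild type, a ratio of 0.23. Rxrb, a retinoid X receptor and so a possible dimer partner, was almost equal, at 1986 on the Pax6-/- array and 1911 on the wild type array.

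The probe sets of Rxra, another retinoid X receptor, differed in size of ratio. The brighter one read 840 on the Pax6-/- array and 629 on the wild type array (log2 ratio 0.33), and the other 795 in Pax6-/- and 321 in wild type (1.08). Below the filter, Nr2c2 (TR4) was at 0.37, Hnf4g at 0.28, Hnf4a at −0.06 and Rxrg at −0.34. Of these 8 relatives, 4 passed the filter, and 0 were past 2-fold by their brighter probe set, against 10.8% of all genes above the filter.

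Over the nuclear receptor superfamily without the pair, 36 of 46 genes had a probe set and 14 passed the filter. Of the 14, 10 were higher and 4 lower on the Pax6-/- array, with a median of 0.19, against a median of −0.02 over all genes above the filter, of which 48.4% were higher. At least 2-fold higher by the brightest probe set were 2, Ppara and Thrb, and 0 were 2-fold lower, against 5.17% and 5.62% of all genes. Nr5a1, counted as lower at −0.24, had other probe sets above the filter at 1.27, 0.53 and −0.26. Ppara, a fatty acid sensor, had a signal of 454 on the Pax6-/- array and 125 on the wild type array (1.33). Thrb, a thyroid hormone receptor, had 438 in Pax6-/- and 155 in wild type (1.09). Like Nr2f2, both passed the filter only through the Pax6-/- signal, which holds for 4 of the 14 in all. Nr1h4, a bile acid receptor, was at 0.79, and Nr4a2, an orphan receptor of dopamine and subplate neurons, at 0.74. The other Nr4a2 probe set, below the filter, had 162 in Pax6-/- and 158 in wild type (−0.02).

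**Figure D4:**
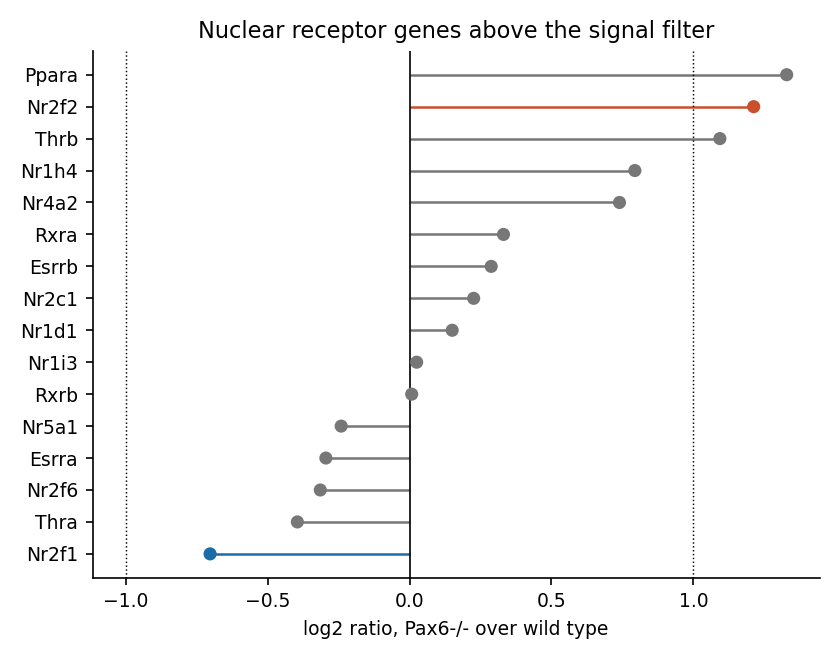
Log2 ratio of Pax6-/- over wild type for Nr2f1 (blue), Nr2f2 (orange) and the 14 other nuclear receptor genes above the filter (grey), sorted from highest at the top; dotted lines mark 2-fold. Nr2f2 is second to Ppara, and Nr2f1 has the lowest value of the 16 genes plotted.

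Other paralogs in the superfamily were set side by side as a description. Of 15 pairs of genes within receptor subgroups that hold neither Nr2f1 nor Nr2f2, 8 had ratios of opposite sign, where 48.4% of all genes above the filter were higher and 51.6% lower. Their differences ran from 0.14 to 1.49, with a median of 0.58. In 3 of the 15 pairs both genes were above the filter, and 2 of these 3 had opposite signs. One was Thrb and Thra, both thyroid hormone receptors, with Thra at −0.40 by its brighter probe set, 5780 on the Pax6-/- array and 7387 on the wild type array. The other Thra probe set, also above the filter, had 889 in Pax6-/- and 624 in wild type and was at 0.42, so the sign of that pair depends on the probe set. The other opposed pair was Esrra at −0.29 and Esrrb at 0.29, both estrogen-related receptors.

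Transcription factors and signals that set cortical areas were mostly lower above the filter. Of 24 genes in this list, 12 had a probe set with a single symbol and 8 passed the filter, 7 of them lower and 1 higher (median −0.74), where 51.6% of all genes were lower. The 7 include Pax6 itself, the disrupted gene, and Fgfr2, which was at −0.38 by its brightest probe set but at 1.39 and 0.58 by its others above the filter. At least 2-fold lower were 4, Pax6, Fgf15, Fgfr1 and Tbr1, where 5.62% of all genes were as low. Fgf15, a growth factor of the forebrain, had 91.0 on the Pax6-/- array and 441 on the wild type array (−1.65) and passed the filter only through the wild type signal. Fgfr1, a fibroblast growth factor receptor gene, had 489 in Pax6-/- and 1414 in wild type (−1.44). Tbr1, which gives early-born neurons frontal and deep-layer identity, had 2405 in Pax6-/- and 5088 in wild type (−1.10). Emx2, Sp8 and Lhx2, further regulators of area identity, had no probe set with a single symbol and were not analysed here. Without the filter, the median over the 12 genes was −0.25 on the same centring.

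Genes with graded or areal expression were divided. The filter left 9, 4 higher and 5 lower, with a median of −0.39, against 0.026 over all 14 on the array on the same centring. Over all genes above the filter 51.6% were lower. Past 2-fold were 1 on the higher side and 1 on the lower, against 5.17% and 5.62% of all genes. Cdh6, a cadherin with areal borders in mouse cortex, was higher, with 395 on the Pax6-/- array and 140 on the wild type array (1.056). Efna2, an ephrin, was lower, with 276 in Pax6-/- and 769 in wild type (−1.30). Between these, Mef2c was at 0.69 and Epha3 at −0.47. Cdh6 and Mef2c passed the filter only through the Pax6-/- signal.

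Among genes tied to COUP-TFs in mouse by general knowledge, 8 of 20 passed the filter, 6 of them lower and 2 higher, with a median of −0.42. The 3 past 2-fold were all lower. Of all genes above the filter, 51.6% were lower, 5.62% by 2-fold or more. The 3 were Rnd2, Nrp1 and Pax6, which is the disrupted gene itself. Below the filter, 2 members were past 2-fold higher, Prox1 at 1.71 and Angpt1 at 1.63, and 0 were past 2-fold lower. Rnd2, a small GTPase of migrating neurons that Nr2f1 is known to restrain in mouse cortex, had 2573 on the Pax6-/- array and 6920 on the wild type array (−1.44). Nrp1, a semaphorin receptor, had 526 in Pax6-/- and 1624 in wild type (−1.53), but its other probe set, below the filter, was at 0.08. Id2, a bHLH inhibitor with an areal pattern, was at −0.46.

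Of 18 cofactors of COUP-TFs and other nuclear receptors, 7 passed the filter, 2 higher and 5 lower, with a median of −0.19. Over all genes above the filter 51.6% were lower. Past 2-fold were 0 of the 7, against 10.8% of all genes, and nothing is read from so few. The histone deacetylase gene Hdac3 came closest, with 121 on the Pax6-/- array and 311 on the wild type array, and a ratio of −0.999, just short of 2-fold; it passed only through the wild type signal. The acetyltransferase gene Crebbp was at −0.70, Hdac1 at −0.44 and the coactivator gene Ncoa1 at 0.38. Zfpm2 (FOG2), a partner of COUP-TFII, lay below the filter on both arrays, with 108 on the Pax6-/- array and 83.5 on the wild type array; it is named for its role, with its values in view.

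Retinoid genes, whose response elements COUP-TFs can occupy, had 5 of 18 members above the filter, 4 higher and 1 lower, with a median of 0.33. Over all genes above the filter 48.4% were higher, and 5.62% were lower by 2-fold or more. Crabp2, a retinoic acid binding protein gene, was the member past 2-fold, with 91.3 on the Pax6-/- array and 295 on the wild type array (−1.17), and it passed only through the wild type signal. Aldh1a1, which makes retinoic acid, was at 0.36, although its other probe set, below the filter, had 5.05 in Pax6-/- and 95.9 in wild type (−1.08). Cyp26a1, which degrades retinoic acid, was at 0.34. With the mean of each gene's probe sets the median was 0.0077.

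Markers of tissues that express Nr2f2 were measured beside it, and their part in its ratio was not tested. The subpallial and interneuron list had 25 genes on the array, whose summed signal was 16497 on the Pax6-/- array and 4707 on the wild type array. Without Dlx1 and Dlx2, left out with their values in view, the sum over the other 23 genes was 6334 on the Pax6-/- array and 4366 on the wild type array. The filter left 13 of the 25, 9 higher and 4 lower on the Pax6-/- array, with a median of 0.88. Past 2-fold were 5 on the higher side and 1 on the lower. Of all genes above the filter, 48.4% were higher, 5.17% by 2-fold or more, and 5.62% were lower by as much. Below the filter, 2 list members were past 2-fold higher and 1 was past 2-fold lower. Of the 13, 3 passed only through the Pax6-/- signal, 1 only through the wild type signal, and the median over all 25 on the same centring was 0.23. Dlx1, Dlx2 and Dlx5, homeobox genes of that territory, were at 4.59, 3.99 and 1.96, and Pbx3 at 1.61. Markers of interneurons from the caudal ganglionic eminence were divided. Vip was at 1.02, with 323 on the Pax6-/- array and 112 on the wild type array. Npas1 was at −2.06, with 57.8 in Pax6-/- and 482 in wild type, and is the gene that passed only through the wild type signal. Further list members are named with their values in view. Htr3a, above the filter level on both arrays, had 914 in Pax6-/- and 454 in wild type (0.85). Below the filter, Prox1 was at 1.71, Calb2 at −0.52, Dlx6 at 0.03 and Gad2 at 0.10.

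The endothelial list, venous markers included, had a summed signal of 2998 on the Pax6-/- array and 2485 on the wild type array over 14 genes. The filter left 5 of them, 3 higher and 2 lower, with a median of 0.16, where 48.4% of all genes were higher. Past 2-fold were 1 on the higher side and 0 on the lower, against 5.17% and 5.62% of all genes. The tight junction gene Cldn5 was at 1.065, Flt1, a VEGF receptor gene, at 0.78, Flt4, a receptor of veins and lymphatics, at 0.16, and Eng at −0.96. The other Flt4 probe set, below the filter, had 118 in Pax6-/- and 207 in wild type (−0.58). The defining marker Cdh5, named for its role, was below the filter on both arrays, with 65.7 in Pax6-/- and 27.5 in wild type.

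The meningeal and mesenchymal list summed to 8105 on the Pax6-/- array and 7975 on the wild type array over 19 genes. Of 11 above the filter, 6 were higher and 5 lower, with a median of 0.26, against 0.039 over all 19 on the same centring. Over all genes above the filter 48.4% were higher. Past 2-fold were 2 on the higher side and 3 on the lower, against 5.17% and 5.62% of all genes. Twist2 was at 1.52 and Zic1 at 1.22, while Snai2 was at −1.23, Pdgfra at −1.08 and Igf2 at −1.04, and another Pdgfra probe set was at 0.72. Of the 11, 3 passed only through the Pax6-/- signal and 2, Snai2 and Pdgfra, only through the wild type signal. The list for diencephalon, cortical hem and choroid plexus summed to 2967 on the Pax6-/- array and 2521 on the wild type array over 11 genes. The filter left 5 of them, 3 higher and 2 lower, with a median of 0.11. Past 2-fold were 1 on the higher side and 0 on the lower. Lhx9 was at 1.12, Irx3 at 0.45, Ttr at −0.16 and Foxj1 at −0.54. Lhx9 passed only through the Pax6-/- signal, with 291 on the Pax6-/- array and 85.1 on the wild type array. Its other probe set, below the filter, was at 0.25. The lowest deposited signal was 1, so no gene could be at 0, and members of these lists went down to 3.78 (Foxc1, wild type array).

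The labelled tissue was checked against markers of dorsal telencephalon. All 7 that had a probe set were above the filter, and all 7 were lower on the Pax6-/- array, with a median of −1.10. Their summed signal was 5818 on the Pax6-/- array and 16180 on the wild type array. Over all genes above the filter 51.6% were lower. Eomes was at −3.44 by its brighter probe set and at −1.39 by the other, which had 216 in Pax6-/- and 671 in wild type. Neurog2 was at −1.94 and Neurod1 at −1.43. Sox5, named after its values were seen, passed only through the wild type signal, with 109 in Pax6-/- and 280.5 in wild type. Nr2f1, a gene of the same tissue, was thus lower by less than that median, and Nr2f2 was on the other side.

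The genes whose signals on the 2 arrays came nearest to those of each member were found by distance in log2(signal + pseudocount). For Nr2f1 these were Zkscan1, Micos13 and Foxl1, with log2 ratios of −0.76, −0.76 and −0.72, at distances of 0.04 to 0.06. For Nr2f2 they were Ttc30b, Pgf and Ebna1bp2, with log2 ratios of 1.21, 1.15 and 1.27, at distances of 0.02 to 0.04. With 2 arrays, nearness says only that both signals are alike.

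Both genes kept their direction under every alternative that gave them a value. A changed pseudocount or filter can alter a direction only through the centring, so this was largely fixed by construction. Nr2f1 has 1 probe set, without a suffix, so the alternatives of the gene summary returned its main value of −0.70. The Nr2f1 ratio ran from −0.78 to −0.58 over 9 alternatives and was past 2-fold in 0 of them. The Nr2f2 ratio ran from 0.81 to 1.59 over 8 alternatives and was past 2-fold in 6. It fell short, at 0.81, with a pseudocount at the 50th percentile of all signals, and, at 0.97, when centred on the _r_at median, the alternative chosen after seeing the data. With a filter at the 60th percentile, or with probe sets without a suffix, Nr2f2 had no value. The difference between both genes ran from 1.39 to 2.37.

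**Figure D5:**
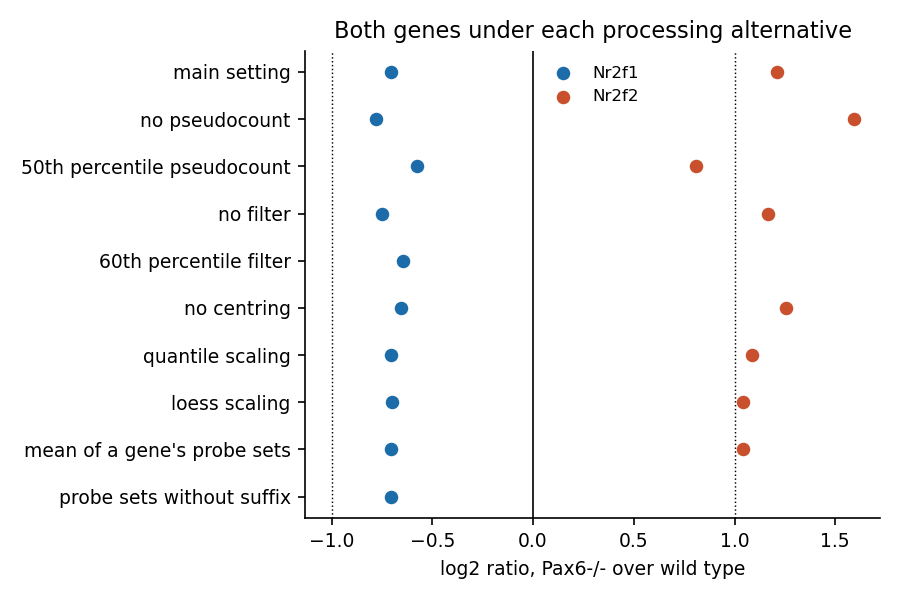
Log2 ratio of Pax6-/- over wild type for Nr2f1 (blue) and Nr2f2 (orange) in the main setting and under each of 9 processing alternatives; dotted lines mark 2-fold, the centring on the _r_at median is not plotted, and a missing orange point means that no Nr2f2 probe set was left. All Nr2f1 points lie between −0.78 and −0.58, and the Nr2f2 points between 0.81 and 1.59.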

How the data were processed

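Total RNA of each genotype was labelled with biotin for Affymetrix arrays, per the labels' protocols. The deposited table holds linear intensities: for each array, every probe set has 1 signal. The submitters' processing notes name MAS5; no version, scaling target or detection call was given in the sources used. The 2% trimmed mean was 500.2 on both arrays, and the median was 283.7 on the Pax6-/- array and 237.3 on the wild type array. The number of arrays limits the precision.

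By GEO's platform annotation 10855 probe sets had 1 symbol, 396 had several and 1237 had none; genes were named only from the first kind. Where a gene had several probe sets, the one brightest on average over both arrays stood for it. The pseudocount is the 25th percentile of all signals. The filter kept probe sets with a mean log2 value at or above the 40th percentile, and centring removed a shift of 0.05. All log2 ratios are on this scale and understate differences of dim genes. The fold threshold was 2. Steps were tested on simulated arrays with known changes. Those changes were placed in probe sets above the median signal and judged by medians over probe sets. Recovery of the ratio of a single dim gene was not tested.

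The members and 12 gene lists were chosen with earlier results of these data known. Named were the members, Pax6, NR2 relatives, receptor paralogs, the 3 nearest genes of each member, and in each other list the members past 2-fold plus the 4 with the largest ratios; exceptions are marked or are markers given for being undetected. Alternatives changed the pseudocount, the filter, the centring, the scaling, the gene summary and the threshold. The work was done in Python 3.11.15 with pandas 2.3.3, numpy 2.4.6, statsmodels 0.14.6, scipy 1.17.1 and, for plots, matplotlib 3.10.9.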

Additional observations from a re-analysis of the deposited data

How the results depend on the processing

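No paired analysis was possible because each genotype has 1 array, and no array could be left out. List medians were recomputed 108 times, and 97 of these stayed within the technical error of a median. Without a pseudocount (signals floored at the 1st percentile) the median was 1.11 for the subpallial list and −1.42 for the dorsal telencephalic list, and 452 genes were at least 2-fold higher. With the 50th-percentile pseudocount the subpallial median was 0.61, with 92 genes higher and 128 lower. With no filter, the centring median was also taken over all probe sets, and the list medians were −0.30 for areal regulators, −0.021 for areal markers, 0.18 for the subpallial list and −0.0079 for the meningeal list, with 510 genes higher and 538 lower. The meningeal median thus changed sign with both together, and was 0.039 with the filter alone removed. Under the 60th-percentile filter they were −0.18 for nuclear receptors outside the NR2 subfamily, of which 5 were left, 1.29 for the subpallial list and −0.90 for the endothelial list, of which 1 gene was left, with 116 genes lower and 99 higher. With the mean of probe sets the retinoid median was 0.0077. Other medians changed sign within the technical error. The diencephalic one was −0.037 without a pseudocount and −0.10 under the 60th-percentile filter. The endothelial one was −0.011 after loess scaling and −0.0043 with the mean of probe sets. For nuclear receptors outside the NR2 subfamily the median was 0.22 in the main setting, 0.098 after loess scaling and 0.10 after quantile scaling. At 1.5-fold, 791 genes were higher and 853 lower, and at 3-fold 60 and 70. After loess scaling 209 were higher and 377 lower, and after quantile scaling 223 and 365. These shifts follow from the construction of each alternative where fewer or more genes enter; otherwise the cause was not tested.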

Other observations

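Below the signal filter lay 4 genes of the list tied to COUP-TFs, 2 higher and 2 lower on the Pax6-/- array. Prox1, a homeobox gene that marks interneurons of the caudal ganglionic eminence and lymphatic endothelium, had a signal of 271 on the Pax6-/- array and 22.7 on the wild type array, a log2 ratio of 1.71. Angpt1, a vessel growth factor gene, had 290 in Pax6-/- and 35.1 in wild type, a ratio of 1.63. Cxcr4, a chemokine receptor gene of migrating interneurons, had 16.7 in Pax6-/- and 88.2 in wild type (−0.84), and Erbb4, a neuregulin receptor gene, had 43.0 in Pax6-/- and 57.9 in wild type (−0.21).

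Of the nuclear receptors outside the NR2 subfamily, 18 lay below the filter, 11 higher and 7 lower, and past 2-fold were 5 on one side and 1 on the other. Of all genes above the filter, 5.17% were higher by as much and 5.62% lower. With no filter and the centring changed with it, 510 of 8251 genes were at least 2-fold higher and 538 lower. The share among genes below the filter was not computed, so nothing is read from this split. The 5 on the higher side were Rora at 2.09 (its other probe set was at 0.65), Nr3c1 at 1.72, Nr4a1 at 1.44, Vdr at 1.37 (its other probe set was at 0.13) and Pgr at 1.19. The 1 on the lower side was Nr0b1, with 25.9 on the Pax6-/- array and 129 on the wild type array (−1.02). These genes were named after their values were seen, and wild type signals of the 5 higher genes were all below the pseudocount.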
